A study of Homo sapiens with 18 samples.

Results

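Sulfur amino acid and antioxidant metabolism was followed through 10 enzyme genes: *CTH* and *CBS* of transsulfuration, *GCLC*, *GCLM* and *GSS* of glutathione synthesis, *GSR* and *TXNRD1* of glutathione and thioredoxin reduction, *GPX4* and *SRXN1* of peroxide removal and peroxiredoxin repair, and *NQO1* of quinone reduction. They were taken by name, and all 10 were among the 45372 gene symbols of the table. RNA sequencing covered 18 libraries of 2 acute myeloid leukemia (AML) cell lines with a *KMT2A* rearrangement, MV4-11 and THP1 (written THP-1 in the labels). In each cell line 3 replicate libraries came from cells given DMSO as the vehicle, 3 from cells given 50 nM IACS-010759 (IACS), an inhibitor of mitochondrial complex I, for 8 h, and 3 from cells given the same dose for 24 h. The comparisons ask how complex I inhibition changed these transcripts over time, and how the cell lines differed before treatment.

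Every group held unmodified cells of an established line, so each result stands for 1 line in culture. The medium of all groups contained 2-mercaptoethanol, a thiol that reduces cystine and eases its uptake by cells. The methods name both times for DMSO and IACS together, and which time the DMSO libraries of a cell line belong to is not given in the sources used here. The replicates are called independent there, with no word on whether same-numbered libraries shared a day. Of 11 myeloid leukemia markers, 9 or 10 reached a mean of 1 TPM (a level normalized to transcript length and to the sum of its library) in each group, with summed levels of 4533 to 7918 TPM in MV4-11 and 1119 to 1538 TPM in THP1. *CD14* stayed below 1 TPM in both cell lines, and *MEIS1* and *ITGAM* were near or under 1 TPM in 1 line each. Of 11 markers of other cells, 1 or 2 reached 1 TPM in a group: *PECAM1*, which monocytic cells also express, in both lines and *KRT18* in MV4-11. The depth, from whole reads recovered from the TPM, was 19964742 to 26541408 reads per library. A group of 5 abundant noncoding RNAs took a mean of 46.2% to 48.2% of the TPM in the MV4-11 groups and 50.6% (DMSO), 54.2% (8 h) and 55.3% (24 h) in the THP1 groups. TPM of a library have a fixed sum, and the median log2 change of all genes tested was 0.06 and 0.08 at 8 h and 24 h in MV4-11, against -0.12 at both times in THP1. Changes of *CBS* and *NQO1* in THP1, and the median change of the enzymes, are therefore also given relative to that median. Other changes in THP1 are not, and are to be read against it.

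Transsulfuration turns homocysteine, a product of the methionine cycle, into cysteine. *CBS* joins homocysteine with serine to cystathionine, and *CTH* splits cystathionine to release cysteine, which cells can also import as cystine. Cysteine, glutamate and glycine make glutathione: the catalytic subunit *GCLC* and the modifier subunit *GCLM* form the rate-limiting ligase, and *GSS* adds glycine. Oxidized glutathione is reduced again by *GSR* with NADPH, thioredoxin by *TXNRD1*, lipid peroxides are reduced by *GPX4* at the cost of glutathione, *SRXN1* repairs overoxidized peroxiredoxins, and *NQO1* reduces quinones. NRF2 (gene *NFE2L2*) binds antioxidant response elements of many of these genes once it escapes *KEAP1*, *BACH1* competes for the same elements, and *ATF4*, the transcription factor of the integrated stress response, acts on *CTH*, *CBS*, the cystine transporter *SLC7A11* and the glutathione-degrading enzyme *CHAC1*.

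The genes lie on several chromosomes (GRCh38, GENCODE release 44): *CTH* on chromosome 1 (70411218 to 70439851, plus strand), *GCLM* on chromosome 1 (93885199 to 93909456, minus strand), *GCLC* on chromosome 6 (53497341 to 53616970, minus strand), *TXNRD1* on chromosome 12 (104215779 to 104350307, plus strand), *NQO1* on chromosome 16 (69706996 to 69726668, minus strand), *GPX4* on chromosome 19 (1103982 to 1106791, plus strand), *SRXN1* (646615 to 653200) and *GSS* (34928432 to 34956027) on chromosome 20, minus strand, and *CBS* on chromosome 21 (43053191 to 43076943, minus strand). All 10 are protein-coding. The TruSeq kit used does not mark strand, so reads from exons that overlap another gene cannot be assigned to 1 of them: exons of *GCLC*, *GSS*, *SRXN1* and *NQO1* overlap another annotated gene, on the opposite strand for *GSS* (*MYH7B*) and *NQO1* and on both strands for *GCLC*.

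Promoter windows of RefSeq (GRCh38.p14, 250 bases before to 50 after the annotated start) were present for 8 of the 10 genes. They are shown for the transsulfuration pair, whose mean levels were higher under IACS in MV4-11 with no limma call. They are also shown for *GCLM* and *NQO1*, whose mean levels were lower in some treated groups, again with no limma call against DMSO. Capitals mark matches on either strand to TGANNNNGC, the core of the antioxidant response element that NRF2 binds, and the windows are written 5′ to 3′ in the direction of the gene.
*CTH*, chr1:70411018-70411317, plus strand: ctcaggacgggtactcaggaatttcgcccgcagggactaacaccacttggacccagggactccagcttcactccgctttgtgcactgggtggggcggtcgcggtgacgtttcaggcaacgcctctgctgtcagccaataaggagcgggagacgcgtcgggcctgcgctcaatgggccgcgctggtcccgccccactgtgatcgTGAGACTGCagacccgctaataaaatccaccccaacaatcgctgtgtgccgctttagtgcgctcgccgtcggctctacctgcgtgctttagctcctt
*CBS*, chr21:43076328-43076627, minus strand: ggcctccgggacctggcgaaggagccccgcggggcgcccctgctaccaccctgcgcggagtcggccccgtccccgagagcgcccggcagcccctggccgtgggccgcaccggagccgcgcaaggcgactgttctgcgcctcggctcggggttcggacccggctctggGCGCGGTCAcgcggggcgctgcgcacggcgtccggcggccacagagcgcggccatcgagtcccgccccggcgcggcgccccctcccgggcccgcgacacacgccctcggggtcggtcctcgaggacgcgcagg
*GCLM*, chr1:93909381-93909680, minus strand: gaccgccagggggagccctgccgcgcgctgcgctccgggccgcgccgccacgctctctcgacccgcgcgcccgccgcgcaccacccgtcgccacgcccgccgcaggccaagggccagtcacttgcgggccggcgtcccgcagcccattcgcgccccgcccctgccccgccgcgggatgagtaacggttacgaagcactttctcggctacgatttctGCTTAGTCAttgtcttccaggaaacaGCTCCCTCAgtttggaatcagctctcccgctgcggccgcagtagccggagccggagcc
*NQO1*, chr16:69726511-69726810, minus strand: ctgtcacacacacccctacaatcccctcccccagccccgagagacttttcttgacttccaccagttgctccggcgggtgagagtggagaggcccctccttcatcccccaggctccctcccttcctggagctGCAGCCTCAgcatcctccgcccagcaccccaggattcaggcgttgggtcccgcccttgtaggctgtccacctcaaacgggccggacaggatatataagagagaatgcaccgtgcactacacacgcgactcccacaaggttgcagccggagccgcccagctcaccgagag

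The match of *CTH* began 47 bases before the start, that of *CBS* 83 bases, those of *GCLM* 34 and 8 bases, and that of *NQO1* 119 bases before it. TGANNNNGC was found in 5 of the 8 windows (*CTH*, *CBS*, *GCLM*, *TXNRD1* and *NQO1*) and in 42.1% of all 27305 promoters of the same length. The stricter TGACNNNGC, which is contained in the first motif, was in the windows of *CBS*, *GCLM* and *TXNRD1*, 3 of 8, against 13.6% of all promoters. The *ATF4* and C/EBP composite site TGATGNAAN (3.67% of all promoters) and its common form TTGCATCA (0.923%) were in 0 of the 8. A match is a string of letters and does not show binding, and elements beyond the window were not searched.

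In DMSO the 10 transcripts covered a wide range of levels. In MV4-11 they ran from *GPX4* at 293 ± 26.2 TPM (SD, n = 3) through *TXNRD1* (102 ± 18.1), *NQO1* (55.7 ± 25.9), *GSR* (49.2 ± 6.55), *SRXN1* (24.3 ± 2.72), *GSS* (18.4 ± 0.17), *GCLM* (11.6 ± 1.72) and *GCLC* (4.54 ± 0.32) to *CBS* (1.602 ± 0.24) and *CTH* (0.88 ± 0.18). Only *NQO1* and *GSR* overlapped among neighbours in that order. In THP1 the order was *GPX4* (187 ± 9.57 TPM), *TXNRD1* (90.2 ± 12.6), *GSR* (68.6 ± 9.06), *NQO1* (38.6 ± 3.25), *CBS* (25.9 ± 4.25), *GCLM* (22.3 ± 4.81), *GSS* (21.5 ± 1.77), *SRXN1* (17.96 ± 2.14), *GCLC* (6.74 ± 1.46) and *CTH* (0.63 ± 0.19). *CBS*, *GCLM*, *GSS* and *SRXN1* overlapped from neighbour to neighbour there. *GCLC*, the catalytic subunit, was thus below its partner *GCLM* in both cell lines.

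**Figure D1:**
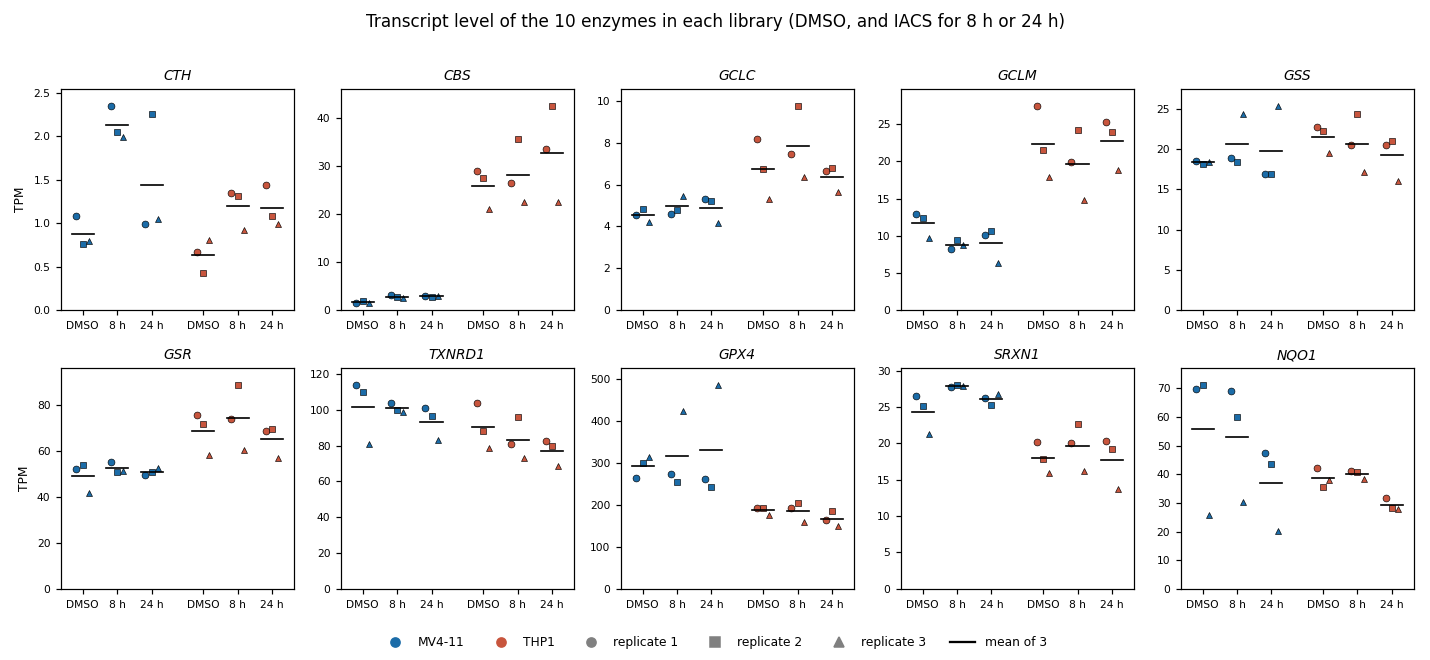
TPM of each of the 10 genes in the 18 libraries, with MV4-11 in blue, THP1 in red, the replicate number as symbol and a bar for the mean of 3 libraries. *CBS* stands at 1.44 to 3.02 TPM in the MV4-11 libraries and 21.0 to 42.7 TPM in THP1, and the *NQO1* level of replicate 3 is the lowest of each MV4-11 group.

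*CBS* set the cell lines apart. In bulk RNA of a cell line a lower level can come from fewer cells that express the gene or from less RNA per cell, which cannot be told apart. Its DMSO libraries had 1.44, 1.87 and 1.49 TPM in MV4-11 and 29.1, 27.5 and 21.0 TPM in THP1, a ratio of 16.1 between the means and a log2 difference of 3.36 on the log2(TPM + 1) scale (SE 0.20, limma adjusted p = 6.95e-11). The groups were far from overlapping. *CTH*, the second enzyme of the same route, was low in both: 1.082, 0.758 and 0.794 TPM in MV4-11 and 0.666, 0.429 and 0.805 TPM in THP1, with 10 to 27 reads per library behind these values and a log2 difference of -0.20 (95% interval -0.56 to 0.16). The *CTH* groups overlapped.

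*GCLM* had 12.9, 12.4 and 9.68 TPM in MV4-11 and 27.5, 21.6 and 17.95 TPM in THP1, with a log2 difference of 0.87 (SE 0.20, limma adjusted p = 0.00141). *GPX4* had 264, 300 and 315 TPM in MV4-11 and 194, 192 and 176 TPM in THP1, a log2 difference of -0.64 (SE 0.22, limma adjusted p = 0.0199). The libraries of the lines did not overlap for either gene. A call required an adjusted p under 0.05 and a change beyond 1.5-fold. By this rule *CBS* and *GCLM*, 2 of the 10, were higher in THP1, where 20.9% of all genes tested were called higher, and *GPX4*, 1 of the 10, was lower, where 17.3% were. The *GPX4* difference sat close to the 1.5-fold limit: it fell under it without the 5 noncoding RNAs (-0.57, adjusted p = 0.00796), and the call was lost without MV4-11 DMSO replicate 2 (-0.62, adjusted p = 0.0530), without MV4-11 DMSO replicate 3 (-0.59, adjusted p = 0.0659) or without THP1 DMSO replicate 3 (-0.60, adjusted p = 0.0555).

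Among the other enzymes *GCLC* (log2 difference 0.47, adjusted p = 0.0198) and *GSR* (0.47, adjusted p = 0.0107) were higher in THP1, and *SRXN1* lower (-0.42, adjusted p = 0.0247), by limma and by less than 1.5-fold. *GCLC* was called without THP1 DMSO replicate 3 (0.61, adjusted p = 0.00496) and did not pass without THP1 DMSO replicate 1 (0.33, adjusted p = 0.111). Over the libraries left out the adjusted p also went up to 0.0704 for *GSR* and 0.0964 for *SRXN1*. *GSS* (0.22, interval -0.13 to 0.57) and *TXNRD1* (-0.16, interval -0.47 to 0.14) did not pass the test. *NQO1* had 70.0, 71.3 and 25.8 TPM in MV4-11 DMSO and 42.2, 35.7 and 38.0 TPM in THP1. Its groups overlapped through replicate 3 of MV4-11, and the difference of -0.38 (interval -1.12 to 0.35) became -0.86 (adjusted p = 0.0310) without MV4-11 DMSO replicate 3. In all, 7 of the 10 genes had DMSO libraries that did not overlap between the lines, 5 higher and 2 lower in THP1, against 61.7% of all genes tested.

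**Figure D2:**
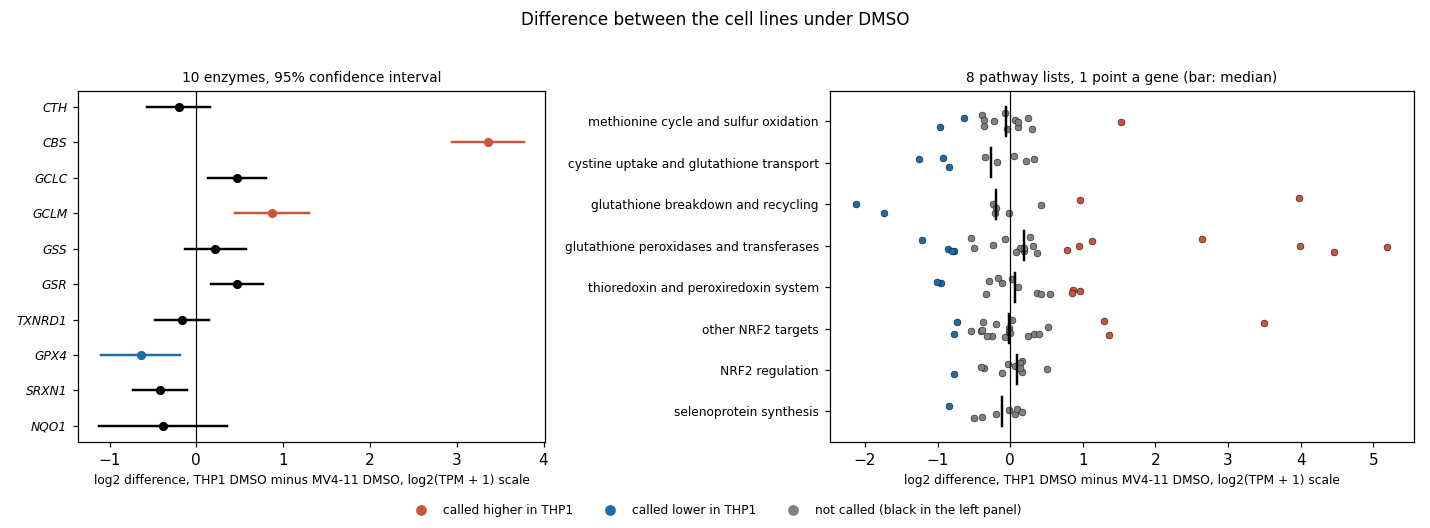
Log2 difference THP1 DMSO minus MV4-11 DMSO on the log2(TPM + 1) scale, at left for the 10 enzymes with 95% confidence intervals and at right for the tested genes of 8 related lists, with a bar at each list's median. *CBS*, at 3.36, has the largest difference of the 10, and *GPX7*, *GSTM1*, *GSTM3*, *ANPEP* and *ME1* have the largest of the lists' differences.

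Around the 10 enzymes, 108 genes of 8 lists (methionine cycle and sulfur oxidation, cystine uptake and glutathione transport, glutathione breakdown, peroxidases and transferases, the thioredoxin system, further NRF2 targets, NRF2 regulation, selenoprotein synthesis) could be tested between the lines. Of these 16 were called higher and 17 lower in THP1, 30.6% in all. Over all genes tested 38.3% were called, 20.9% higher and 17.3% lower. The median log2 difference of the 108 genes was -0.01, against 0.01 over all genes. The largest differences were in glutathione peroxidases and transferases, where 7 of 22 were called higher and 4 lower: *GPX7* had 45.9 TPM in THP1 and 0.28 TPM in MV4-11 (mean of 3), *GSTM1* 26.2 and 0.24, *GSTM3* 18.4 and 0.21, and *GLO1*, which detoxifies methylglyoxal with glutathione, 454 and 71.8. *GSTM* genes are close copies that can share reads, so their split is uncertain. *GPX8*, *GSTA4* and *MGST3* were also called higher, and *GLRX*, *GSTO1*, *GSTZ1* and *GSTP1* lower.

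In glutathione breakdown *ANPEP* (74.7 TPM in THP1 and 3.80 in MV4-11) and *OPLAH* were called higher, and *CNDP2* (5.99 and 29.4) and *GGT5* lower. Of the sulfur amino acid list *CDO1*, which oxidizes cysteine, was called higher (2.40 TPM in THP1 and 0.15 in MV4-11), and *ETHE1* and *TST*, enzymes of sulfide disposal, lower. In the thioredoxin list *TXNIP*, *PRDX6* and *SELENOW* were called higher and *PRDX2* and *TXNDC17* lower, and among the amino acid and glutathione carriers *ABCC4*, *SLC1A4* and *SLC1A5* were lower. Of the further NRF2 targets *ME1* (21.5 TPM in THP1 and 1.04 in MV4-11), *EPHX1* and *PIR* were called higher and *TKT* and *BLVRB* lower. *MAFK*, a partner of NRF2, and *PSTK* of selenocysteine synthesis were called lower. *NFE2L2* itself had 30.4 ± 1.80 TPM in THP1 and 39.4 ± 3.71 in MV4-11 (log2 difference -0.36, adjusted p = 0.0217), and *KEAP1* 59.6 ± 2.84 and 79.0 ± 5.41 (-0.40, adjusted p = 0.0234), both under 1.5-fold. *SLC7A11*, *SLC3A2*, *CHAC1* and *BACH1* did not pass the test between the lines.

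Under IACS 0 of the 10 enzymes were called by limma in any comparison with DMSO. *CTH* failed the filter of a mean of 1 TPM in THP1, so 10 were tested in MV4-11 and 9 in THP1. Few transcripts of any kind were called: 0.0148% of all genes tested at 8 h and 0.0886% at 24 h in MV4-11, and 0.0144% and 0.0431% in THP1. At an unadjusted p under 0.05 and no fold limit the enzymes past it were *CTH* and *CBS* in MV4-11 at 8 h, *CBS* at 24 h, 0 in THP1 at 8 h and *NQO1* in THP1 at 24 h. With voom on recovered reads 1 enzyme was called, *CBS* in MV4-11 at 24 h. In that comparison voom called more genes of any kind than limma did, 97 higher and 33 lower of 13535 tested. An unadjusted voom p under 0.05 was found in MV4-11 for *CTH*, *CBS* and *GCLM* at 8 h and for *CBS* and *GCLM* at 24 h. In THP1 it was found for *GCLC*, *GSR* and *SRXN1* at 8 h and for *CBS*, not *NQO1*, at 24 h. The share of all genes past an unadjusted p with no fold limit was not counted, here or below. Whether these counts differ from that share was therefore not tested. The median log2 change of the enzymes was 0.10 and 0.08 in MV4-11 and 0.06 and -0.07 in THP1 (8 h and 24 h). Relative to the median of all genes this was 0.04, 0.00, 0.18 and 0.05. In MV4-11 the 95% interval of the change lay within 2-fold either way for 9 of 10 enzymes at each time, the exceptions being *CTH* at 8 h and *NQO1* at 24 h. In THP1 it did for all 9 tested at both times, and within 1.5-fold for 6 at 8 h and 7 at 24 h.

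**Figure D3:**
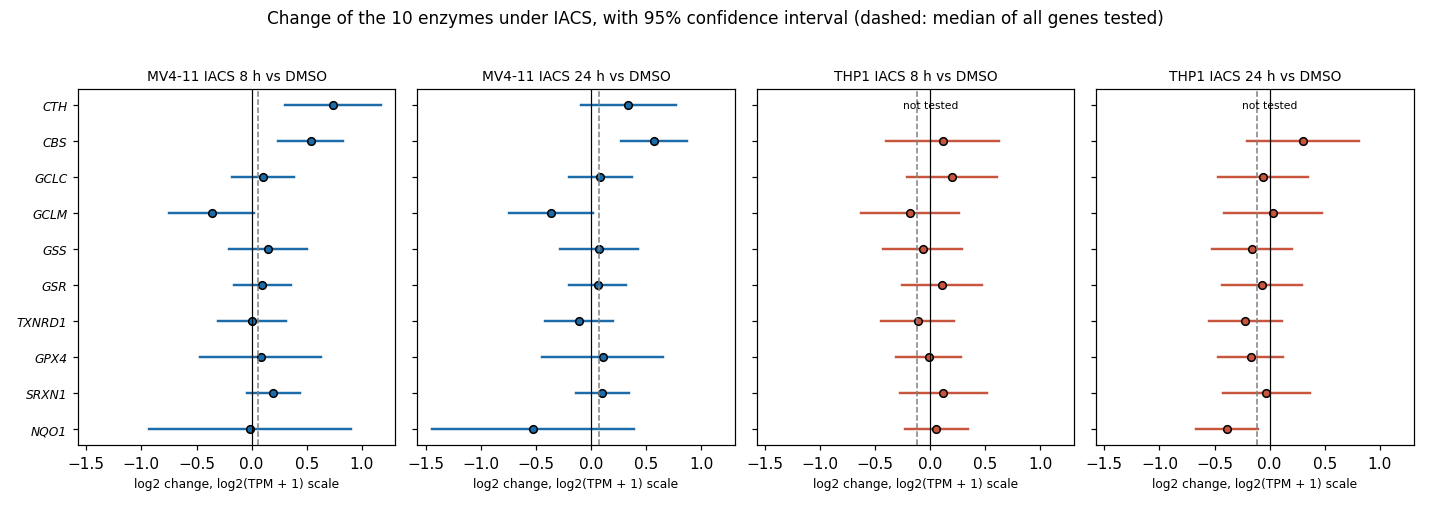
Log2 change of the 10 enzymes against DMSO on the log2(TPM + 1) scale, with 95% confidence intervals, for each cell line and time. The dashed line marks the median of all genes tested. *CTH* and *CBS* in MV4-11 at 8 h, *CBS* in MV4-11 at 24 h and *NQO1* in THP1 at 24 h have intervals that do not reach 0, and their adjusted p values are 0.883, 0.762, 0.132 and 0.498.

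The transsulfuration pair had the largest log2 changes of the 10 in MV4-11 at 8 h. *CTH* stood at 1.082, 0.758 and 0.794 TPM in DMSO, at 2.35, 2.05 and 2.00 TPM after 8 h of IACS, and at 0.995, 2.26 and 1.05 TPM after 24 h. All 8 h libraries lay above DMSO, whereas at 24 h replicate 2 did and replicates 1 and 3 were within the range of DMSO. The 8 h means had a ratio of 2.43, and the log2 change was 0.74 (SE 0.20, unadjusted p = 0.003, limma adjusted p = 0.883). On the log2(TPM + 1) scale, which understates fold changes of low genes, *CTH* was the 1 enzyme past an unadjusted p under 0.05 with a change over 1.5-fold. That rule was met by 0.672% of all genes in that comparison. At 24 h the log2 change was 0.34 (interval -0.09 to 0.78), and 0.11 without IACS 24 h replicate 2. Each MV4-11 library held 21 to 70 *CTH* reads.

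*CBS* had 1.44, 1.87 and 1.49 TPM in MV4-11 DMSO, 3.02, 2.73 and 2.54 TPM at 8 h, and 2.97, 2.69 and 2.93 TPM at 24 h. It was above all DMSO libraries at both times, by a ratio of 1.73 and 1.79 between the means. The log2 change was 0.54 (SE 0.14, unadjusted p = 0.00208, limma adjusted p = 0.762) and 0.57 (SE 0.14, unadjusted p = 0.00125, adjusted p = 0.132). Both were under 1.5-fold on the log2(TPM + 1) scale, while the ratios of the means were over it. By voom the log2 change of *CBS* at 8 h was 0.73 (adjusted p = 0.209). A copy of the gene, listed as *CBSL*, took 2 to 45 reads per MV4-11 library beside 101 to 253 for *CBS*, and 45 of the 146 reads of both in DMSO replicate 1. The sums of both were 146, 155 and 136 reads in DMSO, 261, 218 and 176 at 8 h, and 203, 190 and 220 at 24 h. In reads, not scaled to depth, the treated groups thus stayed apart from DMSO. By voom on recovered reads *CBS* was called at 24 h (0.75, adjusted p = 0.0498), and with the reads of *CBSL* added it was not (0.60, adjusted p = 0.0696).

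In THP1 the treated libraries stood apart from DMSO in TPM for *CTH* and overlapped with it for *CBS*, which stood apart in reads. *CTH* had 0.666, 0.429 and 0.805 TPM in DMSO, 1.35, 1.31 and 0.916 TPM at 8 h, and 1.44, 1.078 and 0.986 TPM at 24 h, from 10 to 42 reads per library. In a fit with no filter on low values the log2 changes were 0.43 (SE 0.14, unadjusted p = 0.0181, limma adjusted p = 1) and 0.41 (SE 0.14, unadjusted p = 0.0213, adjusted p = 0.635). *CBS* had 29.1, 27.5 and 21.0 TPM in DMSO, 26.5, 35.7 and 22.5 TPM at 8 h, and 33.5, 42.7 and 22.5 TPM at 24 h, and the groups overlapped in TPM. The reads of *CBS* and *CBSL* summed to 1786, 1841 and 1662 in DMSO. They summed to 2379, 2284 and 2198 at 8 h, and 2533, 2777 and 2185 at 24 h. In reads, not scaled to depth, the groups thus did not overlap. By limma the log2 changes of *CBS* were 0.11 (interval -0.40 to 0.62) and 0.30 (interval -0.21 to 0.81), or 0.23 and 0.42 relative to the median of all genes. At 24 h *CBS* was higher by voom with an adjusted p of 0.0494 (0.45, SE 0.11) and of 0.0468 with *CBSL* added (0.46), under 1.5-fold and no call, and the replicate block gave an adjusted p of 0.0978. Leaving out 1 library moved the limma value from 0.10 (without IACS 24 h replicate 2) to 0.54 (without IACS 24 h replicate 3).

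Of the glutathione synthesis enzymes, *GCLM* had lower mean levels in MV4-11 under IACS and passed no limma test with DMSO. It had 12.9, 12.4 and 9.68 TPM in DMSO, 8.15, 9.47 and 8.75 TPM at 8 h, and 10.1, 10.6 and 6.27 TPM at 24 h. The 8 h libraries were all below DMSO, and the log2 change was -0.36 (SE 0.18, interval -0.75 to 0.02, limma adjusted p = 0.982). At 24 h 2 libraries lay within the range of DMSO, and the log2 change was -0.36 again (interval -0.75 to 0.02, adjusted p = 0.441), and -0.15 without IACS 24 h replicate 3. In THP1 *GCLM* had 27.5, 21.6 and 17.95 TPM in DMSO, 19.9, 24.2 and 14.8 TPM at 8 h, and 25.4, 23.9 and 18.9 TPM at 24 h, with overlapping groups and log2 changes of -0.18 and 0.03.

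*GCLC* and *GSS* showed no separation of treated and DMSO libraries in TPM in either line. *GCLC* ranged from 4.14 to 5.47 TPM over the MV4-11 libraries and from 5.29 to 9.77 TPM over those of THP1, with log2 changes of 0.10, 0.09, 0.19 and -0.06 (MV4-11 at 8 h and 24 h, THP1 at 8 h and 24 h). By voom *GCLC* in THP1 at 8 h had a log2 change of 0.36 (SE 0.08, unadjusted p = 0.00133, adjusted p = 0.398). *GSS* ranged from 16.9 to 25.4 TPM and from 16.1 to 24.4 TPM, with log2 changes of 0.15, 0.07, -0.07 and -0.16. In MV4-11 the IACS libraries of replicate 3 held 24.4 and 25.4 TPM of *GSS* while the others held 16.9 to 18.9 TPM.

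The reductases *GSR* (chromosome 8, 30678066 to 30727846, minus strand) and *TXNRD1* had overlapping groups in TPM throughout. *GSR* had 52.1, 53.9 and 41.7 TPM in MV4-11 DMSO, 55.2, 51.0 and 51.2 TPM at 8 h and 49.8, 50.8 and 52.7 TPM at 24 h. Its log2 changes of 0.10 and 0.06 had intervals of -0.16 to 0.36 and -0.20 to 0.32, and those in THP1 were 0.11 and -0.07. By voom *GSR* in THP1 at 8 h had a log2 change of 0.25 (SE 0.06, unadjusted p = 0.00209, adjusted p = 0.406). *TXNRD1* had 114, 110 and 81.0 TPM in MV4-11 DMSO, 104, 100 and 98.6 TPM at 8 h, and 101, 96.4 and 83.0 TPM at 24 h. In THP1 it had 104, 88.1 and 78.9 TPM, then 80.6, 95.9 and 73.3 TPM, then 82.8, 79.7 and 68.8 TPM. The lowest *TXNRD1* library of every group in TPM was replicate 3, and the log2 changes were 0.00, -0.11, -0.11 and -0.22. In THP1 this order was shared by *CBS*, *GCLC*, *GCLM*, *GSS*, *GSR*, *GPX4* and *SRXN1*. In reads *TXNRD1* did not keep it there, with 5902, 4929 and 6398 at 24 h.

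*SRXN1* was tight in TPM in treated MV4-11 cells, with 26.5, 25.2 and 21.3 TPM in DMSO, 27.8, 28.1 and 27.9 TPM at 8 h and 26.2, 25.2 and 26.8 TPM at 24 h. All 8 h libraries were above DMSO in TPM, with a log2 change of 0.20 (SE 0.11, interval -0.04 to 0.44, limma adjusted p = 0.982), and in THP1 the log2 changes were 0.12 and -0.03. In reads, not scaled to depth, the MV4-11 groups overlapped, with 924, 798 and 703 at 8 h and 739, 781 and 749 in DMSO. By voom the log2 change of *SRXN1* at 8 h was 0.14 in MV4-11 (unadjusted p = 0.194). In THP1 it was 0.26 (unadjusted p = 0.0147, adjusted p = 0.601). *GPX4* depended on 1 replicate number in MV4-11: DMSO held 264, 300 and 315 TPM, 8 h of IACS 274, 255 and 423 TPM, and 24 h 263, 243 and 487 TPM. Its log2 change at 24 h was 0.11 (interval -0.45 to 0.66), and -0.21 without IACS 24 h replicate 3. In THP1 *GPX4* had 194, 192 and 176 TPM in DMSO, 193, 206 and 160 TPM at 8 h, and 165, 184 and 150 TPM at 24 h, with log2 changes of -0.01 and -0.17.

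*NQO1* was lower in TPM at 24 h in THP1 and was not called. It had 42.2, 35.7 and 38.0 TPM in DMSO, 41.3, 40.7 and 38.4 TPM at 8 h, and 31.8, 28.1 and 27.8 TPM at 24 h. All 24 h libraries lay below all others, with a log2 change against DMSO of -0.39 (SE 0.13, unadjusted p = 0.0107, limma adjusted p = 0.498), or -0.27 relative to the median of all genes. In THP1 the DMSO and 24 h libraries of the same number were weakly correlated (r = 0.15, 0.16 and 0.32), and what they share was not tested. A replicate block also spanned the 8 h libraries, which did not meet the rule for pairing with DMSO. It gave *NQO1* an adjusted p of 0.0150 with the change still under 1.5-fold, so this was not a call. By voom the log2 change was -0.26 (SE 0.13, unadjusted p = 0.0764, adjusted p = 0.264). In MV4-11 *NQO1* had 70.0, 71.3 and 25.8 TPM in DMSO, 69.0, 59.9 and 30.3 TPM at 8 h, and 47.4, 43.6 and 20.2 TPM at 24 h. Each 24 h library was below the DMSO library of the same number, while replicate 3 was low in every group and the groups overlapped. The log2 change of -0.53 had an interval of -1.45 to 0.39 (adjusted p = 0.660). Leaving out 1 library moved it from -1.002 (without DMSO replicate 3) to -0.15 (without IACS 24 h replicate 3). A replicate block gave an SE of 0.13 and an adjusted p of 0.0620, but these numbers did not meet the rule for pairing.

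Replicate 3 of MV4-11 held 36.5%, 47.0% and 44.4% of the mean *NQO1* level of replicates 1 and 2 in DMSO, at 8 h and at 24 h. Of 9796 genes averaging 5 TPM or more over the MV4-11 libraries, 4 (0.0408%) were more than 1.5-fold lower in replicate 3 in all 3 groups: *NQO1*, *PIR*, *PTPN14* and *SNORA57*. Another 15 (0.153%) were higher there. In THP1 123 of 9734 genes (1.26%) were lower in replicate 3 in all groups, *SLC3A2* and *SLC7A11* among them and 0 of the 10 enzymes, and 8 were higher. *PIR*, which encodes pirin and is also counted among NRF2 targets, had 11.0, 11.4 and 4.52 TPM in DMSO, 12.01, 11.5 and 6.70 TPM at 8 h, and 10.5, 10.8 and 5.98 TPM at 24 h. In THP1 replicate 3 of *NQO1* was at 92.8% to 97.6% of the others. What set replicate 3 apart was not tested.

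**Figure D4:**
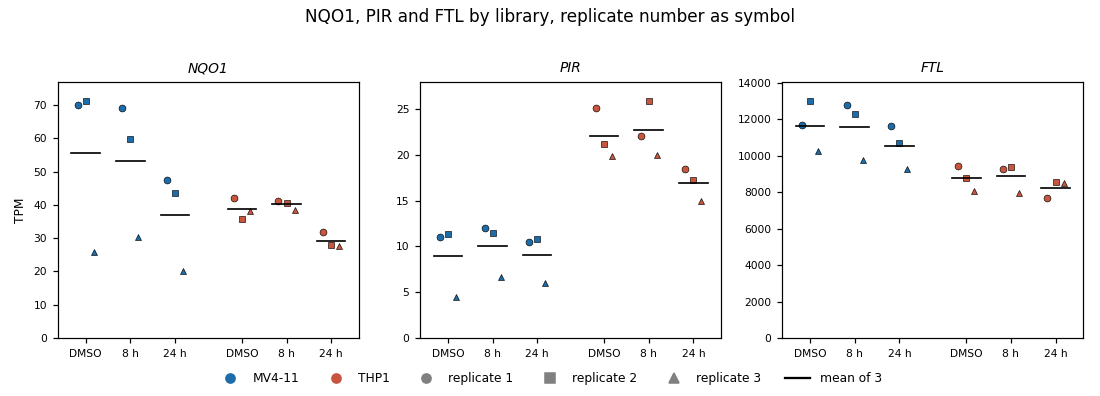
TPM of *NQO1*, *PIR* and *FTL* in the 18 libraries, with the replicate number as symbol and a bar for the mean of 3. Replicate 3 (triangles) of *NQO1* and *PIR* lies below both other replicates in every MV4-11 group, and *NQO1* in THP1 at 24 h holds 27.8 to 31.8 TPM against 35.7 to 42.2 TPM in DMSO.

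Counted in TPM over the enzymes tested, the treated and DMSO libraries did not overlap, with the treated ones higher, for 3 of 10 in MV4-11 at 8 h (*CTH*, *CBS* and *SRXN1*, against 7.13% of all genes) and for 1 of 10 at 24 h (*CBS*, against 19.4%). The treated ones were lower for 1 of 10 at 8 h (*GCLM*, against 1.65%) and 0 of 10 at 24 h (against 5.26%). In THP1 0 of 9 lay above at 8 h (against 0.704%) and at 24 h (against 3.32%), 0 of 9 below at 8 h (against 4.06%), and 1 of 9 below at 24 h (*NQO1*, against 10.2%). In recovered reads, not scaled to depth, *SRXN1* in MV4-11 at 8 h overlapped with DMSO. By voom *GCLC*, *GSR* and *SRXN1* in THP1 at 8 h had an unadjusted p under 0.05, upward and not called. By limma, with fold changes on the log2(TPM + 1) scale, the rule of an unadjusted p with a change over 1.5-fold was met by 0 enzymes in MV4-11 at 24 h. Of all genes 1.99% met it there. In THP1 it was met by 0 enzymes, where 0.761% of all genes met it at 8 h and 2.2% at 24 h.

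Between 8 h and 24 h of IACS 0 of 10 enzymes in MV4-11 (0% of all genes were called by limma) and 0 of 9 in THP1 (0.00718%) were called, and with voom 0 were, with an unadjusted voom p under 0.05 for 1 (*CTH*) and 4 (*GCLC*, *GCLM*, *GSR* and *NQO1*). *CTH* had a log2 change of -0.40 from 8 h to 24 h in MV4-11 (interval -0.83 to 0.03), and *NQO1* one of -0.45 in THP1 (SE 0.13, unadjusted p = 0.00479, adjusted p = 0.602), where it was the 1 enzyme with an unadjusted p under 0.05, against 0 in MV4-11 without a block. The IACS libraries of the same number met the rule for pairing in both lines. The replicate block also spanned DMSO, which did not meet it with 8 h in either line. With the block *NQO1* in THP1 had an adjusted p of 0.0227, under 1.5-fold and no call. In MV4-11 the block gave *NQO1* an unadjusted p of 0.000836 (log2 change -0.51, SE 0.13, adjusted p = 0.591). The block raised the calls over all genes in THP1 from 1 to 114 between the times and from 6 to 296 at 24 h against DMSO, and left the enzymes at 0. A test of whether the change differed between the cell lines called 0 of the 10 at 8 h (0.0067% of all genes) and 0 at 24 h (0.0067%) by limma and by voom, with 0 at an unadjusted limma p under 0.05 and 1 by voom at each time (*GCLC* at 8 h, *GCLM* at 24 h). *CBS* at 8 h differed by -0.42 (interval -1.01 to 0.16) and *GCLM* by 0.18 at 8 h and 0.40 at 24 h (interval -0.21 to 1.00). Relative to the all-gene medians of these differences (-0.16 and -0.18) the values were -0.26, 0.34 and 0.58, so that *GCLM* and not *CBS* had the largest at 8 h.

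Among related genes a few were called. *CHAC1*, which splits glutathione, had 0.944, 1.104 and 0.897 TPM in MV4-11 DMSO, 4.86, 3.84 and 4.75 TPM at 8 h, and 2.83, 3.26 and 3.39 TPM at 24 h. It rose at both times (log2 change 1.47, SE 0.14, limma adjusted p = 0.00315, and 1.07, SE 0.14, adjusted p = 0.0212). The call at 24 h was lost with no filter on low values (adjusted p = 0.109) and without any 1 of the 3 DMSO libraries or of IACS 24 h replicates 1 and 2 (adjusted p = 0.0579 to 0.181). In THP1 it had 0.616, 0.605 and 0.818 TPM, then 2.49, 4.54 and 1.70 TPM, then 3.81, 3.595 and 1.37 TPM, with log2 changes of 1.16 at both times (adjusted p = 0.941 and 0.367), and at 24 h it was called with the replicate block (adjusted p = 0.0111), with median-of-ratios scaling (0.0320), without the 5 noncoding RNAs (0.0452) and by voom (0.0319). The treated libraries lay above DMSO in both lines at both times.

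*SLC7A11*, the cystine carrier, had 3.38, 3.01 and 1.72 TPM in MV4-11 DMSO, 5.66, 6.03 and 4.17 TPM at 8 h and 5.57, 4.995 and 1.997 TPM at 24 h. Its log2 change at 8 h was 0.78 (SE 0.28, unadjusted p = 0.0160, limma adjusted p = 0.982). In THP1 it had 4.68, 4.02 and 2.32 TPM, then 5.58, 8.70 and 3.06 TPM, then 8.69, 8.59 and 3.80 TPM, with a log2 change of 0.75 at 24 h (adjusted p = 0.578) that the replicate block turned into a call (adjusted p = 0.0103). The 8 h libraries of MV4-11 were all above DMSO, and the other groups overlapped with it. *SLC3A2*, which anchors this carrier in the membrane, was above all DMSO libraries in MV4-11 at 8 h (55.5 against 43.2 TPM, log2 change 0.36) and 24 h (56.1 TPM, 0.37), with adjusted p of 0.967 and 0.186. *ATF4* had log2 changes of 0.36 and 0.49 in MV4-11 and 0.37 and 0.54 in THP1 and was called in 0 of the 4.

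*TXNIP*, which binds and inhibits thioredoxin, fell in THP1. It had 196, 184 and 226 TPM in DMSO, 29.2, 32.4 and 34.0 TPM at 8 h, and 41.8, 40.7 and 48.1 TPM at 24 h, with log2 changes of -2.62 (SE 0.14, limma adjusted p = 2.74e-06) and -2.19 (SE 0.14, adjusted p = 2.28e-05). In MV4-11 it had 105, 99.9 and 125 TPM, then 65.3, 63.8 and 83.1 TPM, then 73.2, 69.3 and 78.8 TPM, with log2 changes of -0.64 (adjusted p = 0.380) and -0.57 (adjusted p = 0.132). The treated libraries were below DMSO in both lines, and in MV4-11 at 24 h the gene was called with median-of-ratios scaling, without the 5 noncoding RNAs and by voom (adjusted p = 0.0213 to 0.0290). *FTH1*, the ferritin heavy chain, fell in THP1 at 24 h (326, 329 and 301 TPM in DMSO, 333, 334 and 304 TPM at 8 h, 159, 182 and 153 TPM at 24 h, log2 change -0.95, SE 0.12, adjusted p = 0.0235) and from 8 h to 24 h (-0.97, adjusted p = 0.0434). The first call was lost without any 1 of 4 libraries (THP1 DMSO replicates 1 and 2, IACS 8 h replicate 1 and IACS 24 h replicate 1, adjusted p = 0.0734 to 0.149), and the second without any 1 of 6 (these 4, IACS 8 h replicate 2 and IACS 24 h replicate 3, adjusted p = 0.0865 to 0.298) or with no variance trend (0.0725). In MV4-11 *FTH1* had log2 changes of -0.03 and -0.02.

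**Figure D5:**
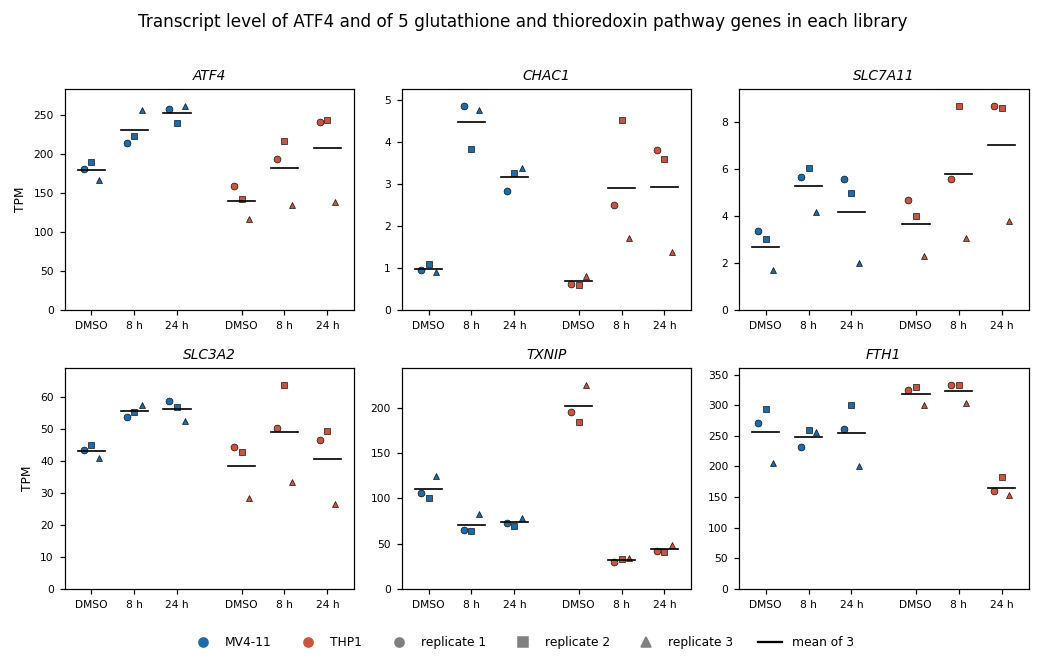
TPM of *ATF4*, *CHAC1*, *SLC7A11*, *SLC3A2*, *TXNIP* and *FTH1* in the 18 libraries, with the replicate number as symbol and a bar for the mean of 3. *CHAC1* in treated libraries lies above DMSO in both lines (at most 1.104 TPM in DMSO, at least 1.37 TPM under IACS), *TXNIP* in THP1 drops to 29.2 to 48.1 TPM, and *FTH1* in THP1 is low at 24 h only.

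Of 101 list genes tested in MV4-11, 1 (*CHAC1*) was called at each time, higher. This was 0.990% of them, against 0.0148% of all genes at 8 h and 0.0886% at 24 h. Of 104 tested in THP1, 1 was called at 8 h (*TXNIP*) and 2 at 24 h (*TXNIP* and *FTH1*), all lower. These were 0.962% and 1.92% of them, against 0.0144% and 0.0431% of all genes. The lists were chosen with earlier results of these data known, so these shares do not test the lists. The median log2 change of the list genes was 0.02 and 0.01 in MV4-11 and -0.06 and -0.15 in THP1, against the all-gene medians of 0.06, 0.08, -0.12 and -0.12. Among those averaging 5 TPM or more whose treated and DMSO libraries did not overlap, the largest changes upward in MV4-11 were *SLC3A2*, *TRNAU1AP* (0.29) and *GSTZ1* (0.24) at 8 h and *MAFG* (0.39), *SLC3A2* and *SUOX* (0.33) at 24 h. The largest downward were *TXNIP* and *GGCT* (-0.17) at 8 h, and *TXNIP* with the peroxiredoxins *PRDX4* (-0.53, adjusted p = 0.186) and *PRDX1* (-0.38, adjusted p = 0.271) at 24 h. In THP1 0 genes went up under this rule, *TXNIP* went down at 8 h, and *TXNIP*, *FTH1* and *SLC25A39* (-0.68, adjusted p = 0.506), a carrier of glutathione into mitochondria, at 24 h.

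The thioredoxin and peroxiredoxin list had a median log2 change of -0.16 in MV4-11 at 24 h with 0 of 14 called (0.0886% of all genes). In THP1 at 24 h its median was -0.19 with 1 of 14 called (*TXNIP*, against 0.0431% of all genes). The further NRF2 targets had medians of 0.03 and 0.02 in MV4-11 (0 of 20 called at each time) and of -0.03 (0 of 19) and -0.14 (1 of 19, *FTH1*) in THP1. The all-gene shares called were 0.0148%, 0.0886%, 0.0144% and 0.0431% in the same order. The regulators of NRF2 had 0 of 12 called in each of the 4 comparisons. *NFE2L2* had log2 changes of -0.01, -0.06, -0.07 and -0.04, *KEAP1* of 0.02, 0.07, -0.02 and -0.23, and *BACH1* of 0.05, 0.09, -0.15 and -0.02 (MV4-11 at 8 h and 24 h, THP1 at 8 h and 24 h). None of the 12 values passed an unadjusted p under 0.05.

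The patterns over libraries were compared with those of 8844 genes averaging 5 TPM or more in both lines, on log2(TPM + 1) centred on the mean of each line, over 18 libraries. Libraries share depth and composition, and these correlations are a description. Most like *CTH* were *SESN2* (Pearson r = 0.78), *TRIB3* (0.77) and *CARS* (0.67). Most like *NQO1* were *PIR* (0.89) and *FTL* (0.84). Most like *SRXN1* were *GSR*, itself 1 of the 10 (0.90), *SLC3A2* (0.90) and *BPNT1* (0.88), and most like *GCLM* were *RMI1* (0.93), *ANKRD18B* (0.93) and *UBTD2* (0.91). Among the 10 enzymes r ran from -0.58 (*GPX4* with *NQO1*) to 0.90 (*GSR* with *SRXN1*), with a median of 0.33, and *GSS* with *GPX4* had 0.89.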

How the data were processed

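RNA of MV4-11 and THP1 cells (2 cell lines, 6 groups of 3 replicates, 18 libraries) was sequenced from TruSeq RNA v2 libraries. The authors trimmed and mapped the reads to GRCh38 with CLC Genomics Workbench 20 and deposited TPM values, normalized to transcript length and library, for 45372 gene symbols. The annotation release and any use of strand are not given in the sources used here. TPM have a fixed sum per library, so they can move when the 5 abundant noncoding RNAs RPPH1, RMRP, RN7SK, RN7SL2 and RN7SL1 do.

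Log2(TPM + 1) values were tested with limma 3.58.1 in R 4.3.3 (lmFit, eBayes with a variance trend), which understates fold changes of low genes. Each cell line was fitted with its 9 libraries over genes with a mean of 1 TPM or more, 13542 in MV4-11 and 13928 in THP1. The 2 lines, and the difference of their changes, were compared in 1 fit of 18 libraries (14915 genes). Adjusted p is by Benjamini-Hochberg over all genes of a fit. A call needed an adjusted p under 0.05 and a change over 1.5-fold. An exact permutation test of 3 against 3 libraries cannot give a p below 0.1 and was not used. The fit was tested on simulated data.

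Whole reads came out of the TPM, within 0.02 of a whole number, for 14908 of 14915 genes. Whether they are reads or read pairs is not known, and counts limit precision for CTH most. limma's voom on them, and the same with CBSL added to CBS, were the 2 alternatives chosen after seeing the data, beside 10 others.

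Replicate numbers were taken to pair libraries where the correlation over genes of same-numbered deviations was over 0.1 in all 3 pairs. This held for THP1 DMSO with 24 h (0.15, 0.16 and 0.32), THP1 8 h with 24 h (0.18, 0.28 and 0.36) and MV4-11 8 h with 24 h (0.11, 0.41 and 0.44), but not for MV4-11 DMSO with 8 h (lowest 0.03) or 24 h (lowest 0.07) or THP1 DMSO with 8 h (lowest 0.04). The labels do not say what a number shares. The block was fitted over all groups of a cell line, including pairs of groups that did not meet this rule. Its p values therefore do not test the pairing. A replicate block gave THP1 at 24 h 55 genes higher and 241 lower, against 1 and 5 without it.

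The 10 enzymes, the 8 lists of related genes and the rule for named genes were chosen with earlier results of these data known. Named were the 10 enzymes, ATF4, CHAC1, SLC7A11, SLC3A2, NFE2L2, KEAP1 and BACH1, every list gene called, per comparison with DMSO the 3 largest rises and falls among list genes of 5 TPM or more without overlap, and the 3 genes most correlated with CTH, GCLM, SRXN1 and NQO1, of which 1 is not reported here. Myeloid leukemia markers and markers of other cells were checked as levels. PTPN14 and SNORA57 were named after their values were seen.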

Additional observations from a re-analysis of the deposited data

Results flagged for a closer look

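The change of TXNIP differed between the cell lines in the interaction test of limma, and the difference was -1.99 on the log2 scale at 8 h (THP1 change minus MV4-11 change, SE 0.18, limma adjusted p = 4.83e-05) and -1.62 at 24 h (SE 0.18, limma adjusted p = 0.00106). TXNIP went from 202 ± 21.2 TPM in THP1 DMSO to 31.9 ± 2.48 TPM at 8 h and 43.6 ± 3.98 TPM at 24 h (SD, n = 3), and from 110 ± 13.3 TPM in MV4-11 DMSO to 70.7 ± 10.8 TPM and 73.8 ± 4.73 TPM. All treated libraries were below DMSO in both lines. The adjusted p passed the threshold no longer with median-of-ratios scaling (-1.77, adjusted p = 0.0668 at 8 h, and -1.39, adjusted p = 0.0714 at 24 h), nor at 24 h with voom on recovered reads (-1.41, adjusted p = 0.0782). Of the 10 enzymes, 0 passed this test at either time (smallest adjusted p 0.911 at 8 h and 0.726 at 24 h).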

How the results depend on the processing

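Of 1842 values of the 10 enzymes under the alternatives, each taken relative to the median of all genes, 5 came to pass the threshold and 4 no longer passed it. The sign changed in 73, 56 of them with 1 library left out, and in 68 of the 73 the value was not called and moved by no more than 1 SE. In MV4-11 at 24 h, 1 enzyme was called with a replicate block and median-of-ratios scaling together (NQO1, lower, -0.63, adjusted p = 0.0193, and adjusted p = 0.0620 with the replicate block alone) and 1 with voom on recovered reads (CBS, higher, 0.75), against 0 as reported. With block and scaling together 1 was called for the difference between the lines at 24 h (GCLM, 0.61). The median change of the enzymes in MV4-11 at 24 h was -0.00766 with median-of-ratios scaling, with or without the block, against 0.08. This scaling moved the median of all genes alike, from 0.08 to -0.01. Called enzymes between the lines numbered 2 or 3 over the libraries left out, and 0 in every other comparison.

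The 5 sign changes of over 1 SE came from leaving out 1 library of MV4-11, in values that were not called. CBS from 8 h to 24 h ranged from -0.12 (without 8 h replicate 3) to 0.14, GCLM from -0.14 to 0.18 (without 24 h replicate 3), and GPX4 from -0.32 (without 24 h replicate 3) to 0.19. GPX4 at 24 h ranged from -0.31 to 0.22, and its difference between the lines at 24 h from -0.28 to 0.23, with the far value again without 24 h replicate 3. Within 1 SE, NQO1 in MV4-11 at 8 h moved from -0.02 to 0.34 and GPX4 from 0.08 to -0.14, both without IACS 8 h replicate 3.

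The calls over all genes moved more than those of the enzymes. Over the settings they numbered 0 to 14 in MV4-11 at 8 h (2 as reported), 0 to 137 in MV4-11 at 24 h (12), 1 to 9 in THP1 at 8 h (2), 1 to 296 in THP1 at 24 h (6), 0 to 1 (0) and 0 to 128 (1) between the times in MV4-11 and THP1, 0 to 2 (1) and 1 to 138 (1) for the differences between the lines at 8 h and 24 h, and 2965 to 6848 (3120 higher and 2587 lower) between the lines. With median-of-ratios scaling the 24 h calls were 55 upward and 27 downward in MV4-11 (10 and 2 as reported) and 47 and 58 in THP1 (1 and 5). The replicate block alone called 84 and 16, 8 and 2, and 1 and 8 genes in MV4-11 at 24 h and 8 h and THP1 at 8 h, where the numbers do not pair the libraries, and changed no call of the enzymes there.

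With 3 libraries a group, intervals of the enzymes often spanned a 1.5-fold change either way, and CTH rested on 10 to 70 reads.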
